A study of Mus musculus with 16 samples.

Results

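Most of the genes described here carry fatty acids into muscle fibres, store them or burn them. They comprise 32 listed genes for fatty acid transport, activation, lipid droplets, the carnitine shuttle and beta-oxidation. Pdk4 and Ucp3 are among the 32 and were grouped apart as a fuel switch. The genes were found by symbol among the 17370 genes of the count table. All 32 passed the filter on low counts that left 15411 genes. The rule that names them rests on function and uses no measured value, but the list was chosen with earlier results of these data known. RNA came from the quadriceps of mice whose anterior cruciate ligament (ACL), which stabilises the knee, had been transected. For 7 days after surgery the animals were given an inhibitor of CSF1-R (40 mg/kg), or, as placebo, sucrose (0.5%) in the water they drank. CSF1-R is the receptor through which macrophages receive survival signals. Sucrose is listed for the placebo animals only. If the inhibitor animals drank none, the inhibitor cannot be told apart from the absence of sucrose in the inhibitor comparisons. There were 4 groups of 4 libraries: healthy limb with placebo, injured limb with placebo, healthy limb with inhibitor and injured limb with inhibitor. Library names joined a left (healthy) and a right (injured) limb by a shared stem, read here as 8 animals with 2 limbs each, although GEO's design text describes the comparison as one in time. The healthy limbs are thus limbs of operated animals, and no unoperated or untreated mouse was analysed here. Strain, sex, age, and the chemical name of the inhibitor are not given in the sources used here.

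Muscle takes up fatty acids through membrane carriers, binds them to a cytosolic protein, and either stores them in lipid droplets or activates them to acyl-CoA. Acyl-CoA enters mitochondria by the carnitine shuttle and is shortened in the matrix by repeated cycles of beta-oxidation, whose electrons reach the respiratory chain through the electron transfer flavoprotein. Pyruvate dehydrogenase kinase 4 (Pdk4) inhibits pyruvate dehydrogenase and so holds back the oxidation of pyruvate from glucose, and many genes of the route respond to fatty acids through nuclear receptors of the PPAR family.

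Libraries held 20.1 to 27.1 M counts (M, mega). All 6 muscle fibre markers were present and summed to 89115 to 162422 CPM (counts per 1 M counts). In 4 libraries (healthy placebo 4, injured placebo 2, injured placebo 3 and healthy inhibitor 1) the markers of joint lining and cartilage summed to 190 to 320 CPM, against 6.03 to 29.2 CPM in the other 12. Most of the joint sum in those 4 libraries was Prg4, at 251, 220, 286 and 169 CPM, then Comp, at 26, 45.5, 28.3 and 17.4 CPM. The cartilage markers Col2a1, Acan and Col10a1 each stood at 16.1 CPM or less, and Acan at 0.32 CPM in healthy inhibitor 1. Macrophage markers summed to 57.6 to 315 CPM in those 4 libraries and 12.9 to 61.9 CPM in the other 12. For the inhibitor in injured limbs, genes whose value these 4 libraries moved by over 1.5 times are given with and without them. Without them, 3 healthy placebo, 2 injured placebo, 3 healthy inhibitor and 4 injured inhibitor libraries remained. In bulk RNA, fewer fibres and less of a transcript per fibre cannot be told apart.

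Per kilobase of transcript, Fabp3, the cytosolic fatty acid binding protein of heart and muscle, had the highest mean level of the 32 genes over all libraries, at 234 CPM per kb. Pdk4 (192), the medium-chain acyl-CoA dehydrogenase Acadm (120), the triglyceride lipase Pnpla2 (108) and the electron transfer flavoprotein subunit Etfb (106) came next on the same scale. The lowest were the droplet coat proteins Plin2 (14.4) and Plin5 (9.18) and the mitochondrial thioesterase Acot2 (8.79 CPM per kb). The genes also differed in how much they varied. Pdk4 spanned an 18.1-fold range over the 16 libraries, Acot2 6.20-fold and the mitochondrial carrier Ucp3 5.00-fold, while Eci2, an enoyl-CoA isomerase, spanned 1.51-fold and the thioesterase Acot13 1.58-fold. Within groups, the standard deviation (SD) of the log2 level was 0.90 for Pdk4 and 0.13 for Eci2. Injured placebo 2 had the lowest level of 30 of the 32 genes. The exceptions were Etfb, lowest in injured placebo 3, and Plin2, lowest in healthy inhibitor 4. Injured inhibitor 1 was the highest library for 14 of the 32.

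**Figure D1:**
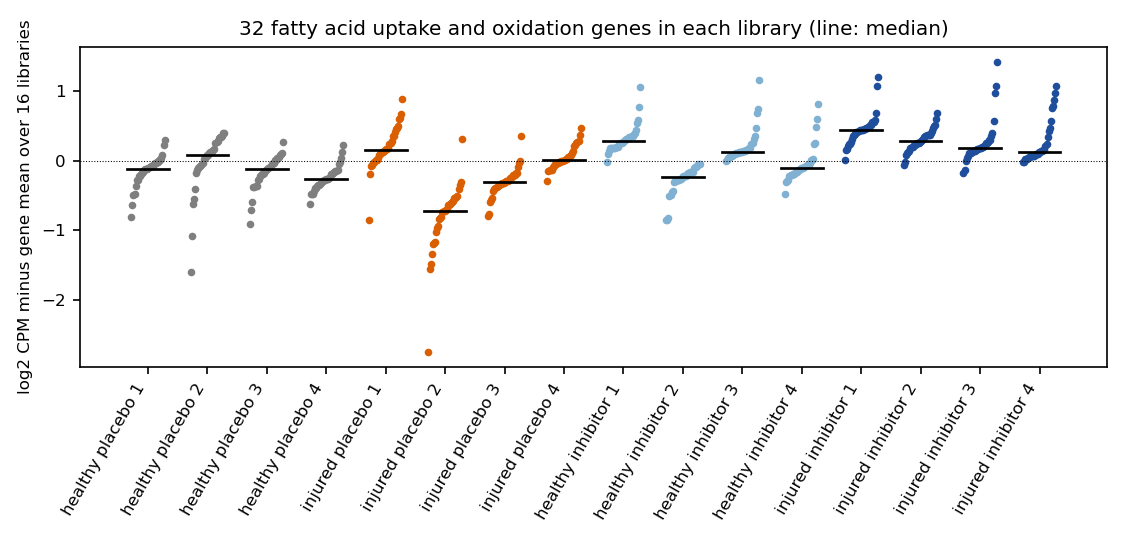
Each point is 1 of the 32 genes in 1 library, as its log2 CPM minus the gene's mean over the 16 libraries (vertical axis). The horizontal lines are medians. Injured placebo 2 lies lowest, and the 4 injured inhibitor libraries all have medians above 0.

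The inhibitor was compared with placebo within the injured limb to ask how the treated muscle differed after transection. Of the 32 genes, 31 were higher with the inhibitor and 1, Plin2, was lower, where 46.9% of all tested genes were higher. The median log2 difference of the 32 genes was 0.43, against -0.02 for all 15411 genes. No gene in the table passed edgeR's quasi-likelihood test after Benjamini-Hochberg adjustment (percent called 0), and the smallest adjusted p among the 32 was 0.218, for Acadvl. At an unadjusted p under 0.05, 19 of the 32 genes were higher and none was lower, where 5.82% of all tested genes were higher and 9.03% lower. DESeq2 called 2 of the 32, Acot2 and Acadvl, each with an adjusted p of 0.0469, and 255 genes in all. In 7 of the 32 genes every injured inhibitor library lay above every injured placebo library, where this held for 2.77% of all tested genes. These were Acot2, Cpt1b, Acadvl, Eci2, Etfa, Etfb and Pdk4. The 19 became 9 without injured placebo 2 (3.85% of all tested genes), 12 without injured inhibitor 1 (4.28%) and 29 without injured placebo 1 (8.48%). With the 4 joint-marker libraries left out, 3 of the 32 (Acadvl, Etfa and Fabp3) had an unadjusted p under 0.05 and were higher, where 3.28% of all tested genes did. In that fit 26 of the 32 were higher, against 50.5% of all tested genes, and the median was 0.17 against 0.00.

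Of the 32 genes, Pdk4, which spares glucose when fat is burned, differed most in either limb. Pdk4 (ENSMUSG00000019577, GRCm38 chr6:5483351-5496309, minus strand) stood at 510, 77.0, 298 and 600 CPM in the injured placebo limbs and at 1195, 785, 1395 and 1089 CPM in the injured inhibitor limbs. The groups did not overlap. Their means were 371 ± 233 and 1116 ± 255 CPM (SD, n = 4 each), a log2 difference of 1.59 ± 0.55 (SE), or 3.01-fold, with an adjusted p of 0.24 in edgeR. In the healthy limbs the same gene stood at 373, 172, 276 and 471 CPM with placebo and at 1085, 288, 1163 and 910 CPM with inhibitor. There, 3 inhibitor libraries lay above every placebo library and healthy inhibitor 2 lay within the placebo range. The means were 323 ± 128 and 861 ± 397 CPM, a log2 difference of 1.42 ± 0.55, with an unadjusted p of 0.023 and an adjusted p of 0.9996 in edgeR. Leaving out the 4 joint-marker libraries gave log2 differences of 1.01 in the injured and 1.52 in the healthy limb.

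Ucp3 (chr7:100472990-100486432, plus strand), an inner mitochondrial membrane carrier whose transcript tracks fatty acid supply in muscle, stood at 39.8, 28.4, 53.4 and 99.7 CPM in injured placebo limbs and at 83, 79.2, 142 and 122 CPM in injured inhibitor limbs. Injured placebo 4 lay inside the inhibitor range and the other placebo libraries below it. The log2 difference was 0.95 ± 0.38 (edgeR adjusted p = 0.283), and 0.61 without the 4 joint-marker libraries. In the healthy limbs it was 0.60 ± 0.38, from 51, 33.9, 76.8 and 84.4 CPM with placebo to 81.6, 62.1, 121 and 109 CPM with inhibitor, ranges that overlapped. Acot2 (chr12:83987861-83993873, plus strand), which splits long-chain acyl-CoA inside mitochondria, stood at 16.4, 5.85, 10.1 and 20.5 CPM in injured placebo and 25, 21.7, 36.3 and 33.6 CPM in injured inhibitor limbs, with no overlap. Its log2 difference was 1.16 ± 0.37 in the injured limb (edgeR adjusted p = 0.229), or 0.68 without the 4 joint-marker libraries, and 0.73 ± 0.37 in the healthy limb. In the healthy limb, levels of 9.77, 11.2, 13.4 and 17.7 CPM with placebo faced 25, 9.71, 27.7 and 24.1 CPM with inhibitor, of which healthy inhibitor 2 lay below every placebo library. Acot2 was added to the genes described in both limbs after its values were seen. Acot1, a near-identical neighbour with which reads may be shared, stood at 0.254 to 2.43 CPM in injured placebo and 2.49 to 3.44 CPM in injured inhibitor limbs, a log2 difference of 1.11 ± 0.61, or 0.37 without the 4 joint-marker libraries.

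The sequence just upstream of the genes that differed most is shown because these 4 genes differed most in both limbs. Promoters were those of RefSeq (GRCm38.p6), which matched 28 of the 32 genes with 32 promoters and left Acot13, Cpt1b, Acaa2 and Decr1 unmatched. Each window of 250 bases before the start was searched on both strands. The PPAR element, AGGTCA repeated after a spacer of 1 base, was found in none of the 32 promoters and in 0.0335% of all 32851 promoters, and the oestrogen-related receptor element TNAAGGTCA in none and in 1.14%. Both are so rare over all promoters that their absence from 32 tells little, and bases farther upstream were not searched. The AGGTCA core, which both elements contain and which was added after these results, was in 7 of 32 (21.9%), against 14% of all. The CCAAT box was in 14 of 32 (43.8%), against 33.8% of all. Capitals mark AGGTCA or the CCAAT box, which reads ATTGG when it lies on the other strand. Each run reads 5′ to 3′ along its gene and ends at the base before the annotated gene.
Pdk4, chr6:5496310-5496528, minus strand: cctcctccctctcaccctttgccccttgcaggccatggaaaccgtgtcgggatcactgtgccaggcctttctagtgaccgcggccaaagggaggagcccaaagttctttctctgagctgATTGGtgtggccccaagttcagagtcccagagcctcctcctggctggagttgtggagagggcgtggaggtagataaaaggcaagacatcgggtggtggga
Ucp3, chr7:100472741-100472989, plus strand: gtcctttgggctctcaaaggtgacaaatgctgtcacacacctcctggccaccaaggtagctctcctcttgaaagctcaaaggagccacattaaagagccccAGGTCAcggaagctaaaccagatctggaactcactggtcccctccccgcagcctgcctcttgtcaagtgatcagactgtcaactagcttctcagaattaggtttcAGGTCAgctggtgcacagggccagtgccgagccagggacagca
Acot2, chr12:83987611-83987860, plus strand: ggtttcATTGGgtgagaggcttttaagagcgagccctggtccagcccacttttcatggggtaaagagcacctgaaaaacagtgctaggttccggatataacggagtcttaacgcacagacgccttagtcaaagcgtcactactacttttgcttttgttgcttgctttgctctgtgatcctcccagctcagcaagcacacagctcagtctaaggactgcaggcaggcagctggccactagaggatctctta
Fabp3, chr4:130308488-130308594, plus strand: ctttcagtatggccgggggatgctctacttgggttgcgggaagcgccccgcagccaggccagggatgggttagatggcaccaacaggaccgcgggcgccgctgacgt
Ucp3 held the AGGTCA core at 149 to 144 and again at 44 to 39 bases before the RefSeq start. Pdk4 held ATTGG at 131 to 127 bases before its start and Acot2 at 244 to 240. The Fabp3 stretch held none of these letters. A match of letters is a description of the window and not a binding site.

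Among the uptake genes, Fabp3 (chr4:130308595-130315463, plus strand) stood at 201, 92.6, 177 and 146 CPM in injured placebo limbs and at 375, 287, 266 and 199 CPM in injured inhibitor limbs. Only injured inhibitor 4 lay within the placebo range. The means were 154 ± 47.0 and 282 ± 72.7 CPM, a log2 difference of 0.87 ± 0.29 (edgeR adjusted p = 0.229). In healthy limbs Fabp3 stood at 115, 122, 162 and 116 CPM with placebo and at 303, 125, 246 and 153 CPM with inhibitor, and the log2 difference was 0.68 ± 0.29 (edgeR unadjusted p = 0.0312). Without the 4 joint-marker libraries the differences were 0.70 in the injured and 0.39 in the healthy limb. Slow fibre markers summed to 3419, 2856, 1905 and 204 CPM in the injured inhibitor and to 2827, 86.1, 1720 and 468 CPM in the healthy inhibitor libraries, the same order of libraries as Fabp3 in each group. With placebo they summed to 1227, 1107, 3368 and 102 CPM in injured and 135, 1715, 407 and 575 CPM in healthy limbs, in another order than Fabp3. The part of slow fibres in the Fabp3 differences was not tested. The gene overlaps exons of Zcchc17 on the other strand, which averaged 31.6 CPM, and whether counting used strand is not given in the sources used here. Cd36, the membrane fatty acid translocase that endothelial cells and adipocytes also carry, stood at 459, 111, 172 and 263 CPM in injured placebo and at 366, 320, 307 and 317 CPM in injured inhibitor limbs. Its placebo libraries spanned the whole inhibitor range, and the log2 difference was 0.38 ± 0.36 (edgeR adjusted p = 0.662). It was -0.14 without the 4 joint-marker libraries. Endothelial markers summed to 180 and 186 CPM in injured placebo 2 and 3, the lowest of all libraries, and to 221 to 305 CPM elsewhere, and their part in the Cd36 difference was not tested. The transporter Slc27a1 differed by 0.52 ± 0.32, or 0.05 without those 4 libraries.

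Among the other activation genes and the carnitine shuttle, Acsl1, which joins long-chain fatty acids to CoA, was higher in the injured inhibitor limbs by 0.46 ± 0.21 on the log2 scale, or 0.08 without the 4 joint-marker libraries. Cpt1b (chr15:89416405-89425863, minus strand), the muscle carnitine palmitoyltransferase that controls entry into mitochondria, stood at 261, 138, 191 and 260 CPM in injured placebo and at 292, 291, 266 and 267 CPM in injured inhibitor limbs. The 4 inhibitor libraries lay close together and above all placebo libraries, of which 2 were within 10 CPM of them. The log2 difference was 0.39 ± 0.15 (edgeR adjusted p = 0.262), and 0.10 without the 4 joint-marker libraries. Mlycd, which removes the malonyl-CoA that inhibits this step, differed by 0.48 ± 0.18, and the translocase Slc25a20 by 0.38 ± 0.16. Without the 4 joint-marker libraries these were 0.23 and 0.11. Cpt2, which rebuilds acyl-CoA inside, differed by 0.25 ± 0.16 and had an unadjusted edgeR p of 0.137, and differed by -0.03 without them.

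All 9 matrix enzymes of beta-oxidation were higher in the injured inhibitor limbs, with log2 differences of 0.28 to 0.52, and 4 of them had an unadjusted p under 0.05. Acadvl (chr11:70010183-70015411, minus strand), the very long-chain dehydrogenase that opens the cycle, stood at 209, 146, 166 and 204 CPM with placebo and at 296, 268, 248 and 227 CPM with inhibitor, with no overlap. The log2 difference was 0.52 ± 0.15, and it was 0.33 without the 4 joint-marker libraries. Its exons overlap those of Dvl2 on the other strand, at 8.14 CPM. Acadm differed by 0.44 ± 0.16, or 0.18 without those libraries. Hadha and Hadhb, which encode the alpha and beta subunits of the trifunctional protein and are transcribed away from each other, differed by 0.46 ± 0.16 and 0.29 ± 0.24, or by 0.19 and -0.04 without them. The 85 bases between these genes are shown because the pair share them as upstream sequence.
Hadha to Hadhb, chr5:30155163-30155247, plus strand: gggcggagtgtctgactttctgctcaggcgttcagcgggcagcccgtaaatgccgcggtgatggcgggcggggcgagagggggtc
This stretch held none of the searched letters. Acaa2, the thiolase of the last step, differed by 0.51 ± 0.24, or by 0.23 without the 4 joint-marker libraries.

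The auxiliary enzymes for unsaturated chains followed, with Eci1 higher by 0.46 ± 0.16, Decr1 by 0.41 ± 0.15, Eci2 by 0.26 ± 0.10 and Ech1 by 0.25 ± 0.17 on the log2 scale. Without the 4 joint-marker libraries these were 0.21, 0.20, 0.20 and -0.02. All 3 electron transfer genes had an unadjusted p under 0.05. Etfa, the alpha subunit of the flavoprotein, stood at 115, 74.3, 101 and 108 CPM with placebo and at 158, 147, 125 and 118 CPM with inhibitor in the injured limb. These groups were separate by a few CPM. The log2 differences were 0.46 ± 0.14 for Etfa, 0.36 ± 0.12 for Etfb and 0.53 ± 0.17 for Etfdh, the oxidoreductase that passes the electrons to ubiquinone. Without the 4 joint-marker libraries they were 0.30, 0.24 and 0.25. None of the 3 lipid droplet genes had an unadjusted p under 0.05. Pnpla2, the first lipase of the stored triglyceride, differed by 0.42 ± 0.32, and by -0.09 without the 4 joint-marker libraries. Plin5, which tethers droplets to mitochondria, differed by 0.58 ± 0.35, or by 0.11 without them. Plin2, which coats droplets in many cell types, macrophages included, differed by -0.06 ± 0.13, or by 0.12 without them.

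**Figure D2:**
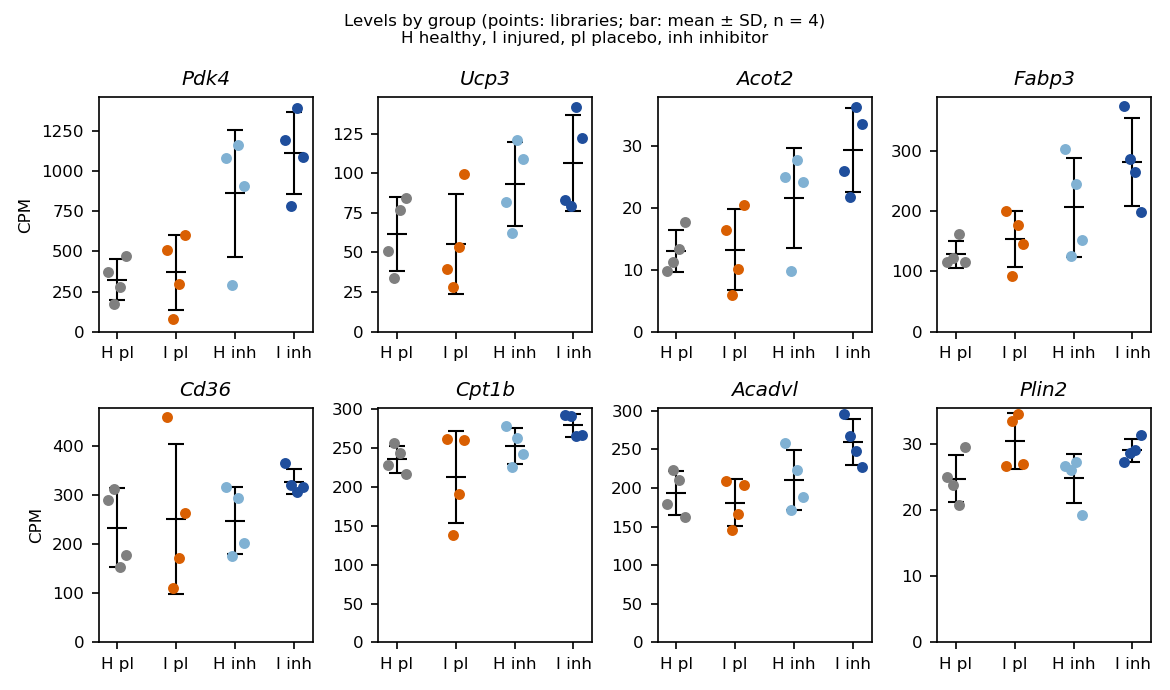
CPM of named genes in each library (points) with group means and SD, n = 4 per group. Pdk4 is separate between the injured placebo and injured inhibitor libraries, whereas Cd36 and Plin2 overlap.

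In the healthy limb all 32 genes were higher with the inhibitor than with placebo, where 46% of all tested genes were higher, but by little. The median log2 difference was 0.10, against -0.02 for all genes, and the range was 0.00 (Plin2) to 1.42 (Pdk4). No gene in the table passed edgeR (percent called 0), DESeq2 called 12 genes and none of the 32, and 2 of the 32, Pdk4 and Fabp3, had an unadjusted p under 0.05 with higher levels, where 1.3% of all tested genes did. This count was 0 without healthy placebo 2 (1.65% of all tested genes), healthy inhibitor 1 (1.07%) or healthy inhibitor 3 (0.95%). It was 1 without healthy placebo 1 (1.89%) or 3 (2.32%), and 4 without healthy inhibitor 2 (1.48%). Acadm, Hadha and Cpt1b differed by 0.13 ± 0.16, 0.14 ± 0.16 and 0.10 ± 0.15, less than their errors. Without the 4 joint-marker libraries 12 of the 32 genes were higher, against 49.3% of all tested genes, and the median was -0.03, while Pdk4, Ucp3, Acot2 and Fabp3 were higher by 1.52, 0.85, 0.83 and 0.39. Both inhibitor comparisons use different libraries but the same 8 animals.

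**Figure D3:**
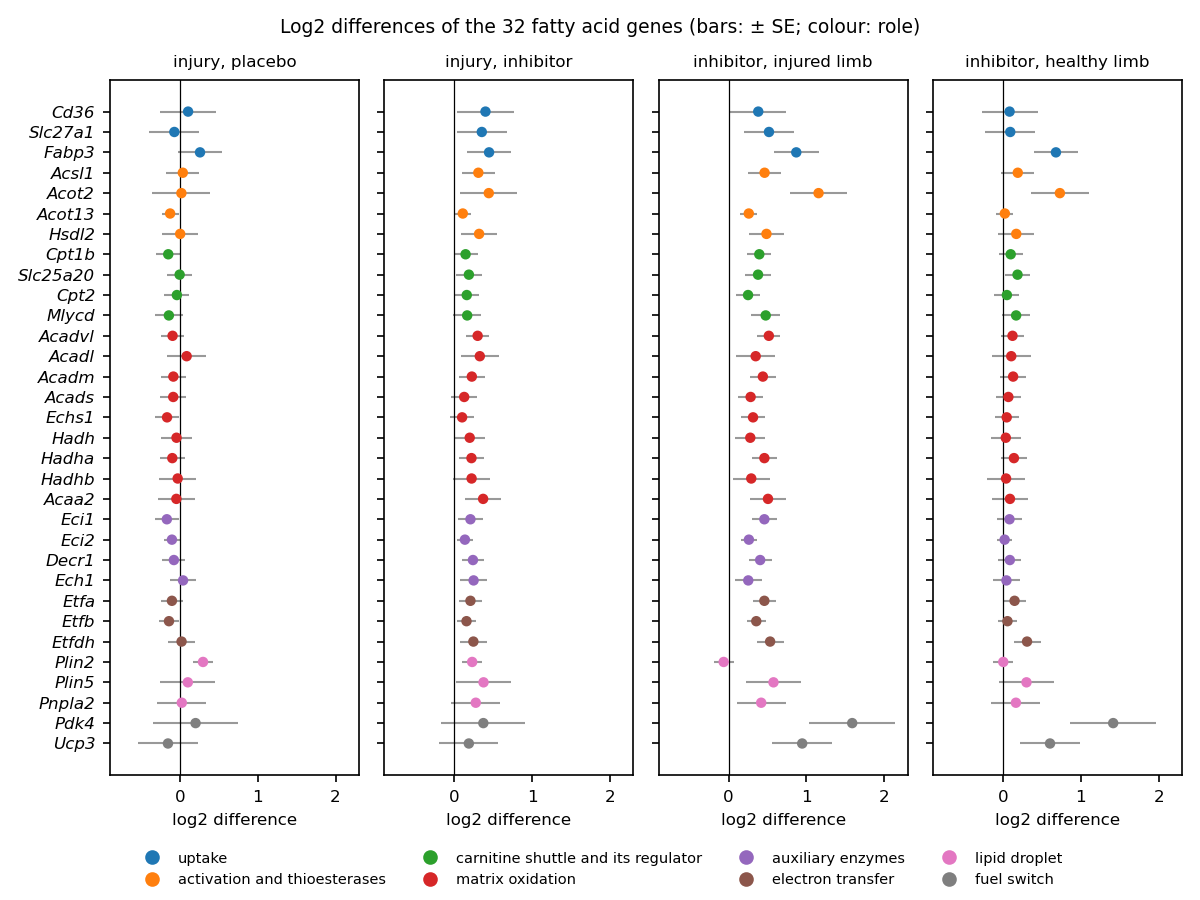
Log2 differences with standard errors for the 32 genes in 4 comparisons, ordered by role. With the inhibitor in the injured limb 31 of 32 lie above 0, and Pdk4, Acot2, Ucp3 and Fabp3 lie farthest out in both limbs.

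Injury was compared with the healthy limb in placebo animals to ask what transection did to the muscle without the drug. The 32 genes were divided, with 12 higher and 20 lower in the injured limb, where 51.1% of all tested genes were higher, and the median log2 difference was -0.04 against 0.01 for all genes. No gene in the table passed edgeR (percent called 0), DESeq2 called none, and 1116 genes (7.24%) had an unadjusted p under 0.05, 4.61% with higher levels. Plin2 was the only one of the 32 among them. It stood at 25, 23.8, 20.8 and 29.5 CPM in healthy and at 26.6, 33.5, 34.6 and 26.9 CPM in injured limbs. The highest values came from injured placebo 2 and 3, the libraries with the highest macrophage markers (315 and 272 CPM summed). Its log2 difference was 0.30 ± 0.13 (edgeR unadjusted p = 0.0346, adjusted p = 0.641), and no gene of the 32 was below 0.05 with the animal as a block, or without healthy placebo 1, 2 or 3 or injured placebo 2 or 3. The part of macrophage RNA in this difference was not tested. All 4 carnitine shuttle genes and 8 of the 9 matrix enzymes were lower, by small amounts such as -0.15 ± 0.15 for Cpt1b, -0.10 ± 0.16 for Hadha and -0.08 ± 0.16 for Acadm. The direction turned on a library: the median was 0.11 with 26 genes higher without injured placebo 2, and -0.21 without injured placebo 1. Leaving out the 4 joint-marker libraries gave 0.18, with 29 genes higher, against 49% of all tested genes, and Cpt1b, Hadha and Acadm then differed by 0.10, 0.11 and 0.12.

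With the inhibitor, all 32 genes were higher in the injured than in the healthy limb, where 51% of all tested genes were higher. The median log2 difference was 0.23, against 0.00 for all genes, and the range was 0.10 for Echs1, the enoyl-CoA hydratase, to 0.45 for Fabp3. None reached an unadjusted p under 0.05 in edgeR, where 1.31% of all tested genes (202) did. No gene passed after adjustment (percent called 0) and DESeq2 called 1 gene, none of the 32. The smallest p of the 32 belonged to Acadvl (0.30 ± 0.15, unadjusted p = 0.0597 in edgeR), followed by Plin2 (0.23 ± 0.13) and Decr1 (0.24 ± 0.15). With the animal as a block 1 of the 32 had an unadjusted p under 0.05, where 1.4% of all tested genes did. Without healthy inhibitor 1 there were 4 (2.28% of all tested genes), and without injured inhibitor 4 there was 1 (1.84%). Without the 4 joint-marker libraries there were 17, at a median of 0.32. In that fit 3.41% of all tested genes had an unadjusted p under 0.05, and the median of all tested genes was 0.01. Only healthy inhibitor 1 of those 4 libraries belongs to this comparison. Leaving it out alone gave the count of 4 above, also at a median of 0.32. The others are placebo libraries, which enter this comparison only through the shared spread, scaling and filter.

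The limbs of each animal show how far these medians are shared. The injured limb was higher than the healthy limb of the same inhibitor animal for 30, 32, 22 and 31 of the 32 genes in animals 1 to 4, with median log2 ratios of 0.12, 0.53, 0.06 and 0.23. Inhibitor animal 2, whose healthy limb had low Pdk4 and Acot2, had the widest gap. In placebo animals 1 to 4 the counts were 29, 1, 7 and 31 of 32, with median ratios of 0.34, -0.79, -0.18 and 0.27. Of all tested genes, 49.3% to 51.9% were higher in the injured limb in each of the 8 animals. The placebo animals thus went opposite ways, and the 2 whose injured limb was lower were the 2 whose injured limb was high in joint markers. Placebo animal 4 and inhibitor animal 1 had a healthy limb high in them. The part of other tissue in those libraries was not tested. In the inhibitor animals 20 of the 32 genes were higher in the injured limb of all 4, where 7.23% of all tested genes were, and in the placebo animals none was, where 4.27% were. Plin2 was again apart: it was the 1 gene of 32 that was higher in the injured limb of placebo animal 2.

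**Figure D4:**
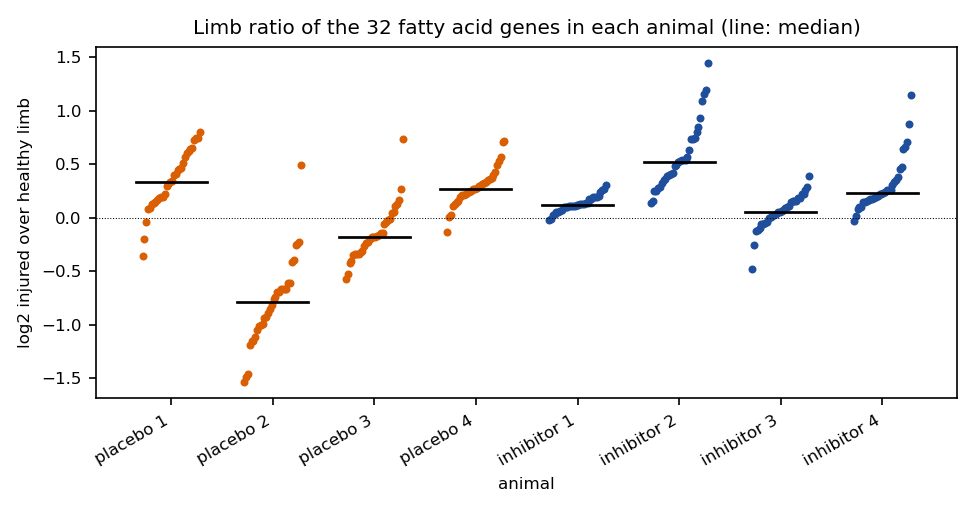
Log2 ratio of injured over healthy limb in each animal, 1 point per gene, with the median as a line. Placebo animals 2 and 3 lie below 0 and placebo animals 1 and 4 above it, while all 4 inhibitor medians are above 0.

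The difference of the injury effects asks whether injury acted differently under the drug. It was above 0 for 31 of the 32 genes, where this held for 49.5% of all tested genes, with a median of 0.27 against 0.00 for all genes. No gene passed edgeR (percent called 0) or DESeq2, and none of the 32 had an unadjusted p under 0.05, where 2.74% of all tested genes (423) did. The largest value was 0.43 ± 0.45 for Slc27a1 and the smallest p belonged to Acadvl (0.39 ± 0.21, unadjusted p = 0.0781 in edgeR). For Cpt1b, Acadm and Hadha it was 0.30 ± 0.22, 0.31 ± 0.23 and 0.32 ± 0.23, and for Pdk4 0.17 ± 0.76. A different response to injury was thus not detectable for any of the 32 at this replication. With the animal as a block 2 of the 32 had an unadjusted p under 0.05, where 2.02% of all tested genes did. Without injured placebo 1 there were 7 (5.48% of all tested genes) and without healthy inhibitor 1 there were 3 (2.42%). Without healthy placebo 4 there were 2, a share below the 8.12% of all tested genes. Without injured placebo 2 alone, 29 of the 32 were above 0 (49.8% of all tested genes), at a median of 0.11. With the 4 joint-marker libraries left out, 27 of the 32 were above 0 (51.3% of all tested genes), at a median of 0.13. In that fit Slc27a1 gave 0.12, Cpt1b 0.10, Acadm 0.18, Hadha 0.20, Ucp3 -0.24 and Pdk4 -0.51.

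A wider list of 53 related genes (regulators, lipases, other dehydrogenases, thioesterases, pyruvate dehydrogenase kinases and phosphatases) was also read. In injured limbs 40 of the 53 were higher with the inhibitor, where 46.9% of all tested genes were, and the median of the 53 was 0.16. Of the 53, 8 had an unadjusted p under 0.05, a share near the 14.9% of all tested genes. Of these 8, 6 were higher (Acad11, Crat, Slc22a5, Plin3, Pdk1 and Txnip), where 5.82% of all tested genes were. The other 2 were lower (Acsl6 and Ucp2), where 9.03% of all tested genes were. The smallest p belonged to Acsl6, an acyl-CoA synthetase, which differed by -0.28 ± 0.09, from 25.9, 22.7, 23.4 and 25 CPM with placebo to 18.4, 21.5, 21.5 and 18.4 CPM with inhibitor. These groups did not overlap, as in the healthy limb, where the difference was -0.34 ± 0.09. Acad11, an acyl-CoA dehydrogenase, was higher by 0.37 ± 0.12 in the injured limb, or by 0.13 without the 4 joint-marker libraries. Ucp2, a carrier abundant in macrophages, differed by -1.80 ± 0.66, from 12.2, 50.3, 44.7 and 9.28 CPM to 6.79, 5.4, 11.1 and 10.1 CPM. Its high values were those of injured placebo 2 and 3, and without the 4 joint-marker libraries the difference was -0.36. In the healthy limb 33 of the 53 were higher (46% of all tested genes), and the 2 with an unadjusted p under 0.05, Acsl6 and Pdp1, were lower, where 2.03% of all tested genes were. Pdp1, a phosphatase that opposes the Pdk enzymes on pyruvate dehydrogenase, differed by -0.58 ± 0.15 with no overlap, from 73.3, 108, 80 and 76.9 CPM to 53, 70.9, 48.6 and 53.4 CPM. Its edgeR unadjusted p was 0.00159 and its adjusted p 0.994. For injury with placebo 24 of the 53 were higher (51.1% of all tested genes) and 3 had an unadjusted p under 0.05, a share below the 7.24% of all tested genes: Pdk2 (-0.32 ± 0.12, or -0.20 without the 4 joint-marker libraries), Rxra (-0.29 ± 0.13) and Acot9 (0.35 ± 0.14). For injury with inhibitor 37 of the 53 were higher (51% of all tested genes), the difference of injury effects was above 0 for 39 (49.5%), and none had an unadjusted p under 0.05 in either.

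A score per library, the mean of the 32 genes' log2 levels relative to their means, summarised them. It was 0.45, 0.29, 0.27 and 0.26 in the injured inhibitor libraries, the narrowest group. The injured placebo libraries scored 0.20, -0.82, -0.31 and 0.05. Scores were 0.32, -0.29, 0.21 and -0.05 for healthy limbs with inhibitor and -0.15, -0.03, -0.16 and -0.25 for healthy limbs with placebo. Several markers stood apart in its 2 lowest libraries. Injured placebo 2 and 3, which had the lowest scores, had the lowest muscle fibre scores (-0.45 and -0.36), the highest macrophage scores (3.03 and 2.74), high joint scores (2.88 and 2.43) and the lowest endothelial scores (-0.44 and -0.35). By summed CPM, though, the lowest muscle fibre library was injured placebo 1 (89115 CPM), whose score was 0.20. Healthy inhibitor 2, next lowest at -0.29, had macrophage, joint and muscle fibre scores of -0.54, -1.13 and 0.10. Healthy placebo 4, at -0.25, had the highest joint score (3.13) and a macrophage score of 1.97. Healthy inhibitor 1, also high in joint markers, had a score of 0.32. Slow fibre markers, which mark fibres rich in oxidative enzymes, had their 3 highest sums at 3419, 2856 and 1905 CPM among injured inhibitor and at 3368, 1227 and 1107 CPM among injured placebo libraries. Healthy inhibitor 2, low in Pdk4 and Acot2, had the lowest slow fibre sum. Injured inhibitor 4 had a low slow fibre score (-1.99) and a score for the 32 genes of 0.26. Adipocyte markers summed to 71.9 to 698 CPM in injured placebo and 102 to 1507 CPM in injured inhibitor libraries. All 8 adipocyte, all 7 macrophage and all 7 slow fibre markers passed the filter on low counts, and the defining brown fat marker Ucp1 was at 0 in 12 of the 16 libraries. It stood at 1.43 CPM in injured placebo 4, 0.153 in healthy inhibitor 3, and 0.574 and 2.08 CPM in injured inhibitor 1 and 4, and the brown fat markers summed to at most 6.57 CPM, in injured inhibitor 4. The part of fibre type and of other tissue in these differences was not tested.

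**Figure D5:**
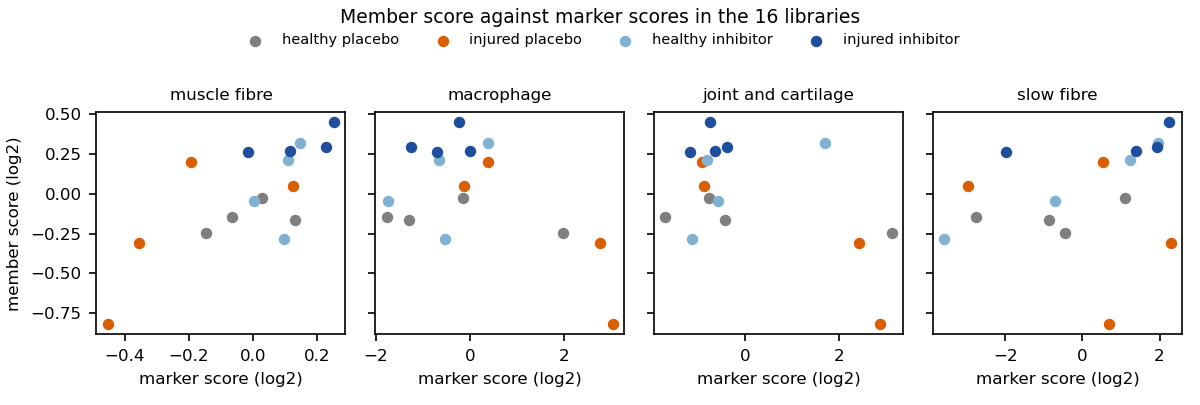
Score of the 32 genes (vertical axis, mean log2 relative to the 16 libraries) against scores for 4 marker lists, 1 point per library. The 2 lowest points, injured placebo 2 and 3, have the lowest muscle fibre and the highest macrophage scores. By summed CPM the lowest muscle fibre library is injured placebo 1.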

How the data were processed

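RNA was isolated with TRIzol and a Zymo column kit, per the labels' protocols, from 16 libraries. The authors deposited expected counts (raw estimates per gene, identified by Ensembl ID). STAR, Partek, DESeq2 and the build GRCm38 (mm10) are named, without role or version, per the submitters' processing notes. Counts were rounded (33.8% were not whole numbers as printed in the file, and 24.2% were over 0.01 from one). Symbols and coordinates came from GENCODE M21, which gave 17338 of 17370 genes a symbol. In edgeR 4.0.16 (R 4.3.3), filterByExpr with a minimum count of 10 dropped 1959 genes. The model used TMM scaling and fitted 4 group means with the robust quasi-likelihood method, two-sided, at 0.05 after Benjamini-Hochberg adjustment over 15411 genes. CPM use TMM library sizes. DESeq2 1.42.0, its size factors, no filter, only the compared libraries, a block and leaving out each library were alternatives. Leaving out the 4 joint-marker libraries was chosen after seeing the data. A log2 difference is a model estimate, and the SE was derived from its test statistic. Scores used a pseudocount of 0.15 CPM. The fit was tested on simulated counts.

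The shared name stem paired the limbs of an animal. Deviations of the limbs from their group means correlated at 0.23, -0.04, -0.01 and -0.10 in the inhibitor animals (1 to 4), and the placebo animals gave 0.47, -0.18, -0.11 and -0.53.

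The 32 genes and all other lists were chosen with earlier results of these data known. Followed in every comparison were Cd36, Fabp3, Cpt1b, Acadm, Hadha, Plin2, Pnpla2, Pdk4 and Ucp3, with called genes, the 3 smallest p and the highest and lowest difference. Their values are not all printed for every comparison. Other genes of the 32 are named to describe their role. Of a wider list of 53 genes the 3 smallest p of each comparison were followed, and not all of them are printed. Its other named genes (Acot1, Lpl and Angptl4 among them) were chosen after their values were seen.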

Additional observations from a re-analysis of the deposited data

Results flagged for a closer look

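Of 132 sets of 4 values (the 32 genes and their score in each group), 6 had a library standing apart from the other 3 by Dixon's ratio at its 95% critical value, and chance gives about 1 in 20. Fabp3 was high in healthy placebo 3 (161.8 CPM, ratio 0.836), and Acaa2 was high in healthy placebo 2 (134 CPM, ratio 0.965). Acot2 was low in healthy inhibitor 2 (9.71 CPM, ratio 0.870), and Plin2 was low in healthy inhibitor 4 (19.3 CPM, ratio 0.866). Eci2 was low in injured placebo 2 (28.6 CPM, ratio 0.881). The score of the 32 genes was high in injured inhibitor 1 (0.45, ratio 0.833).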

How the results depend on the processing

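Across 78 values of named genes and their alternatives, 1155 of 1211 kept direction and side of the threshold and 54 changed direction. DESeq2 called 2 of the 32 genes and 255 in all for the inhibitor in injured limbs, 12 in all for it in healthy limbs and 1 for injury with inhibitor. Under the animal block, which pairs limbs, injury with placebo gave Pnpla2 -0.10, Pdk4 -0.048 and Acot2 -0.086. Counts of the 32 below an unadjusted 0.05 were 0 for injury with placebo (5.76% of all tested genes) and 1 with inhibitor (1.4%). For the difference of injury effects the count was 2 (2.02%). Each animal had 1 treatment, so inhibitor comparisons were blocked on replicate number alone, which joins different animals that no label relates. This gave 4 for the inhibitor in healthy limbs (2.02% of all tested genes) and 22 in injured limbs (10.8%), against 19 in the main fit. Under either block no gene passed after adjustment. With only the compared libraries, the count of the 32 was 0 for injury with placebo (2.67% of all tested genes) and 6 with inhibitor (3.53%). Plin2 then gave -0.000717 for the inhibitor in healthy limbs. Without the 4 joint-marker libraries, injury with inhibitor gave 17 (3.41% of all tested genes), against 4 (2.28%) without healthy inhibitor 1 alone. For the inhibitor in injured limbs the count was 3 (6.33%). For the difference the count was 1 (2.47%). Injury with placebo then gave Cpt1b 0.10, Acadm 0.12, Hadha 0.11, Ucp3 0.37 and Eci1 0.017. The inhibitor in injured limbs gave Cd36 -0.14, Plin2 0.12 and Pnpla2 -0.087, and in healthy limbs Cd36 -0.17, Acadm -0.0021, Hadha -0.012 and Pnpla2 -0.012. The difference gave Plin2 0.062, Pnpla2 -0.075, Pdk4 -0.51, Ucp3 -0.24 and Acot2 -0.16. The cause was not tested. Leaving out each library in turn, counts of the 32 ranged from 0 to 1 and of all genes called from 0 to 3 for injury with placebo (3 without injured placebo 4), from 0 to 4 of the 32 for injury with inhibitor, from 9 to 29 and 0 to 39 for the inhibitor in injured limbs (39 without injured placebo 4), from 0 to 4 and 0 to 1 for it in healthy limbs (1 without healthy placebo 1), and from 0 to 7 of the 32 for the difference. The share of all tested genes below an unadjusted 0.05 ranged from 3.09% to 16.3% for injury with placebo and 0.86% to 2.28% with inhibitor. It ranged from 8.23% to 20.5% for the inhibitor in injured limbs, 2.56% to 5.13% in healthy limbs and 1.78% to 8.12% for the difference. Injury with placebo ranged for Cd36 from -0.37 to 0.35, Cpt1b -0.27 to 0.0093, Acadm -0.22 to 0.060 and Hadha -0.25 to 0.028. For the same comparison Pnpla2 ranged from -0.23 to 0.27, Pdk4 -0.13 to 0.54, Ucp3 -0.61 to 0.067 and Acot2 -0.28 to 0.27. Plin2 ranged from -0.11 to 0.014 for the inhibitor in injured limbs, -0.069 to 0.11 in healthy limbs and -0.17 to 0.0091 for the difference, Cd36 from -0.071 to 0.26 for the inhibitor in healthy limbs and Pdk4 from -0.17 to 0.51 for the difference. With 4 libraries a group, standard errors for the inhibitor in injured limbs ran from 0.10 (Eci2) to 0.55 (Pdk4) on the log2 scale, and a count of 3 in a library was 0.109 to 0.159 CPM.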

Other observations

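Genes of the wider list that handle circulating lipid overlapped between the groups. Lpl, the lipase that frees fatty acids from lipoproteins, stood at 1447, 295, 526 and 676 CPM in injured placebo and at 1383, 1238, 825 and 1004 CPM in injured inhibitor limbs, a log2 difference of 0.60 ± 0.46 (edgeR adjusted p = 0.567) that was 0.07 without the 4 joint-marker libraries. Injured placebo 1 was above every inhibitor library and the other placebo libraries below them. Angptl4, an inhibitor of that lipase, stood at 7.55, 7.38, 6.13 and 6.8 CPM with placebo and at 9.65, 7.46, 8.96 and 18.4 CPM with inhibitor in the injured limb, and differed by 0.67 ± 0.51 (edgeR adjusted p = 0.557). Its highest value was that of injured inhibitor 4, the library with the highest adipocyte markers (1507 CPM summed). Ppara and Ppard, receptors that control many genes of fatty acid oxidation, differed by 0.22 ± 0.39 and 0.12 ± 0.16 in the injured limb, and by -0.37 and -0.18 without the 4 joint-marker libraries.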
